A study of Mus musculus with 8 samples.

Results

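A run of similar zinc finger genes on mouse chromosome 13 was followed in hippocampal RNA of mice that carry a heterozygous knockout of Nr2f1 (HET) and of wild-type mice (WT). The genes were taken by symbol and are Zfp455, Zfp458, Zfp457, Zfp595, Zfp456, Zfp429, Zfp459, Zfp58 and Zfp87, in their order on the chromosome. Of these 9, 8 matched a row among the 37310 genes counted, and Zfp87 matched none by its identifier and was not analysed here. The run was chosen by the HET against WT fold changes of some of its genes in these same libraries, so the differences of its members between the genotypes are given as a description, with no p-value.

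Each genotype had 4 libraries, labelled as biological replicates, and WT differs from HET in the labels only by the Nr2f1 allele, whose construction the labels do not give. All mice were labelled B6.129 F1 hybrids and 3 months old. Which strain's sequence each library carries on chromosome 13 was not tested. All were labelled male, yet all 8 libraries held 463.2 to 601.4 CPM of Xist, an RNA of cells with a silenced X chromosome (CPM, the unit of all levels here, is a read count scaled by TMM library size). Of 4 Y-linked genes, Ddx3y, Kdm5d and Eif2s3y had no read and Uty had 3 reads in all, which goes against the label in each library. Gene counts per library ran from 58717305 to 90043971. A count of 0 would allow up to 3 counts, or 0.0332 to 0.0510 CPM by library, which covers counting error only because the reads carry no molecular identifiers. Hippocampal neuron markers were abundant, with the summed level of 8 of them between 9581 and 11200 CPM. Nr2f1 itself was at 53.4, 49.5, 54.1 and 51.6 CPM in WT libraries 1 to 4 and at 32.4, 31.0, 33.5 and 28.5 CPM in HET libraries 1 to 4, so its level was lower in all HET libraries, in the direction of the labels (log2 fold change -0.73, SE 0.0511, edgeR adjusted p = 7.32e-05; exact two-sided permutation p = 0.0286, the smallest that 4 against 4 allows).

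KRAB zinc finger proteins bind DNA through an array of C2H2 zinc fingers and recruit the corepressor Trim28 through their KRAB domain. Trim28 in turn brings in the histone methyltransferase Setdb1 and heterochromatin proteins, and the bound DNA, often a transposable element, is silenced. The family grew in rodents by local duplication, which leaves runs of neighbouring, similar genes. The run studied here is the one that holds Rsl1 and Rsl2, repressors of male-limited liver genes, and the RefSeq gene table lists Rsl2 as another name of Zfp429. Nr2f1 lies on chromosome 13 as well. Whether each member encodes a KRAB domain was not examined. Translated in the longest reading frame of its longest coding transcript, each member held matches to the C2H2 zinc finger pattern, from 4 in Zfp459 and 9 in Zfp429 through 10 in Zfp456, 12 in Zfp455, 15 in Zfp58 and 16 in Zfp87 to 18 in Zfp457, 20 in Zfp595 and 21 in Zfp458. In the reference order, 11 of the counted rows lay between the outermost members. The 3 that are not members are Zfp874a, Zfp874b and the antisense model Gm17039.

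The upstream sequences show how alike some neighbours are and where the 3 members with the widest gap between the genotypes stand. The 250 bases before the annotated start are given 5′ to 3′ on the gene's strand, from RefSeq on GRCm38.p6, for Zfp429 (chr13:67399768-67400017), for its neighbour Zfp456 (chr13:67375764-67376013), for Zfp459 (chr13:67421419-67421668) and for Zfp58 (chr13:67500523-67500772), all on the minus strand. These positions belong to GRCm38.p6, while the counts were made on NCBIM37 (mm9). Capitals mark a match to the core of the motif known for the factor Zfp143, here on the opposite strand in each case.
Zfp429: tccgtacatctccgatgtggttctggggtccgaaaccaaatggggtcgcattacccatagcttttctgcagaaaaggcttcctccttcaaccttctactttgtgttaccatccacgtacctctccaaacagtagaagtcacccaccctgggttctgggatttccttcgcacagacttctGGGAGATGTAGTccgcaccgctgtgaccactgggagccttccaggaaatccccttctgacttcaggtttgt
Zfp456: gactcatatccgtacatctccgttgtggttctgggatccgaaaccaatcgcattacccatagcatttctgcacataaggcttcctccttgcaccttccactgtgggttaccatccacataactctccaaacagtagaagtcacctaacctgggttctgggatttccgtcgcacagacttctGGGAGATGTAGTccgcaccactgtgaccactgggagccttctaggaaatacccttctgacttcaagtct
Zfp459: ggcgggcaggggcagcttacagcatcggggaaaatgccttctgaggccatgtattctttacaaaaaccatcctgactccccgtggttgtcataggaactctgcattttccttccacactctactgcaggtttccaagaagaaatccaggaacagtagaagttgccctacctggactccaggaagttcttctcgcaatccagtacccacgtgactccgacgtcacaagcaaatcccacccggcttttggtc
Zfp58: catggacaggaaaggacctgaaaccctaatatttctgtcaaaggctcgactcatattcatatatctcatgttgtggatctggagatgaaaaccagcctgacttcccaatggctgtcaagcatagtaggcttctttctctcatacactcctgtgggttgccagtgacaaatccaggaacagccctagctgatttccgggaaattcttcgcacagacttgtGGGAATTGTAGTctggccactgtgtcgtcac

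The Zfp429 and Zfp456 stretches were identical at 222 of 258 alignment columns, gaps counted, and the identities that follow are counted in the same way. Identity to the same stretch of Rsl1 was 87.9% for Zfp429 and 89.3% for Zfp456. Zfp459 and Zfp58 were less like these, with 49.8% and 43.7% identity to Zfp429 and 52.5% to each other. The Zfp143 core, searched on both strands, was present in 7 of the 8 members that have a promoter entry (Zfp455, Zfp458, Zfp457, Zfp595, Zfp456, Zfp429 and Zfp58), against 1.67% of 32851 promoter entries of the same length. It was also present in Rsl1, Zfp874a and Zfp874b. Its letters were not in the 250 bases of Zfp459. The motif TGACGTCA, a palindrome and so matched on both strands, did not overlap the Zfp143 core and was in Zfp457, Zfp595, Zfp874a and Zfp874b and in 1.55% of all entries. These are matches of letters, and binding was not measured.

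Zfp429 was the member with the widest gap between the genotypes. Zfp429 (ENSMUSG00000078994.1), the gene also named Rsl2, had 10, 5, 11 and 4 reads in WT libraries 1 to 4 and 52, 45, 69 and 89 reads in HET libraries 1 to 4. As a level this was 0.133, 0.0576, 0.138 and 0.0445 CPM in WT and 0.884, 0.564, 0.763 and 1.10 CPM in HET. The lowest HET library lay above the highest WT library, and WT libraries 2 and 4 were close to the limit that a count of 0 allows (0.0346 and 0.0334 CPM). The means were 0.0933 ± 0.0491 CPM in WT and 0.827 ± 0.223 CPM in HET (SD, n = 4 each), and the fit gave a log2 fold change of 3.16 (SE 0.370), or 8.95-fold. Only 2 WT libraries reached 10 reads, so Zfp429 passed the low-count filter through the HET libraries.

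Zfp459, the next gene along the chromosome, was also higher in every HET library. Zfp459 (ENSMUSG00000055560.5) was at 1.17, 0.968, 1.00 and 1.01 CPM in WT libraries 1 to 4 and at 2.35, 1.97, 2.37 and 2.83 CPM in HET libraries 1 to 4. The groups did not overlap, and the WT libraries lay close together while HET library 4 was the highest. The means were 1.04 ± 0.0914 and 2.38 ± 0.350 CPM (SD, n = 4 each), a log2 fold change of 1.20 (SE 0.152), or 2.30-fold.

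Zfp58, the most abundant member, went the other way. Zfp58 (ENSMUSG00000071291.3) was at 14.2, 13.4, 13.3 and 13.1 CPM in WT libraries 1 to 4 and at 9.92, 9.56, 10.4 and 11.1 CPM in HET libraries 1 to 4. Every HET library lay below every WT library. The means were 13.5 ± 0.478 and 10.2 ± 0.649 CPM (SD, n = 4 each), a log2 fold change of -0.39 (SE 0.0606), so that HET stood at 0.762 of WT.

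The other 5 members overlapped between the genotypes. Zfp458 (ENSMUSG00000055480.6) was at 4.29, 3.43, 4.07 and 4.75 CPM in WT and 4.50, 5.83, 4.65 and 5.65 CPM in HET libraries 1 to 4, with a log2 fold change of 0.32 ± 0.120 (SE). HET libraries 2 and 4 were above the WT range and HET libraries 1 and 3 within it. Zfp456 (ENSMUSG00000078995.2), the neighbour with the near-identical upstream stretch, was at 0.693, 0.691, 0.739 and 0.656 CPM in WT and 0.748, 0.627, 0.675 and 1.02 CPM in HET, and its log2 fold change was 0.15 ± 0.201 (SE). Zfp455 (ENSMUSG00000051037.9) had means of 2.31 ± 0.339 and 2.21 ± 0.298 CPM (SD, n = 4 each) and a log2 fold change of -0.052 ± 0.142 (SE). Zfp457 (ENSMUSG00000055341.7) was at 1.79 ± 0.118 CPM in WT and 1.58 ± 0.229 CPM in HET (SD, n = 4 each), a log2 fold change of -0.17 ± 0.137 (SE). Zfp595 (ENSMUSG00000057842.6) was at 2.24, 2.77, 2.16 and 2.43 CPM in WT and 1.85, 2.60, 2.22 and 2.01 CPM in HET, a log2 fold change of -0.14 ± 0.135 (SE). The coding frames of Zfp455 and Zfp456 were identical at 93.4% of alignment columns, gaps counted. Those of Zfp456 and Zfp429 were identical at 755 of 1388 columns (54.4%) and those of Zfp429 and Zfp459 at 534 of 972 (54.9%). The frames of Zfp455, Zfp456, Zfp429 and Zfp459 hold 461, 458, 320 and 267 codons, so gaps lower the share where the lengths differ.

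**Figure D1:**
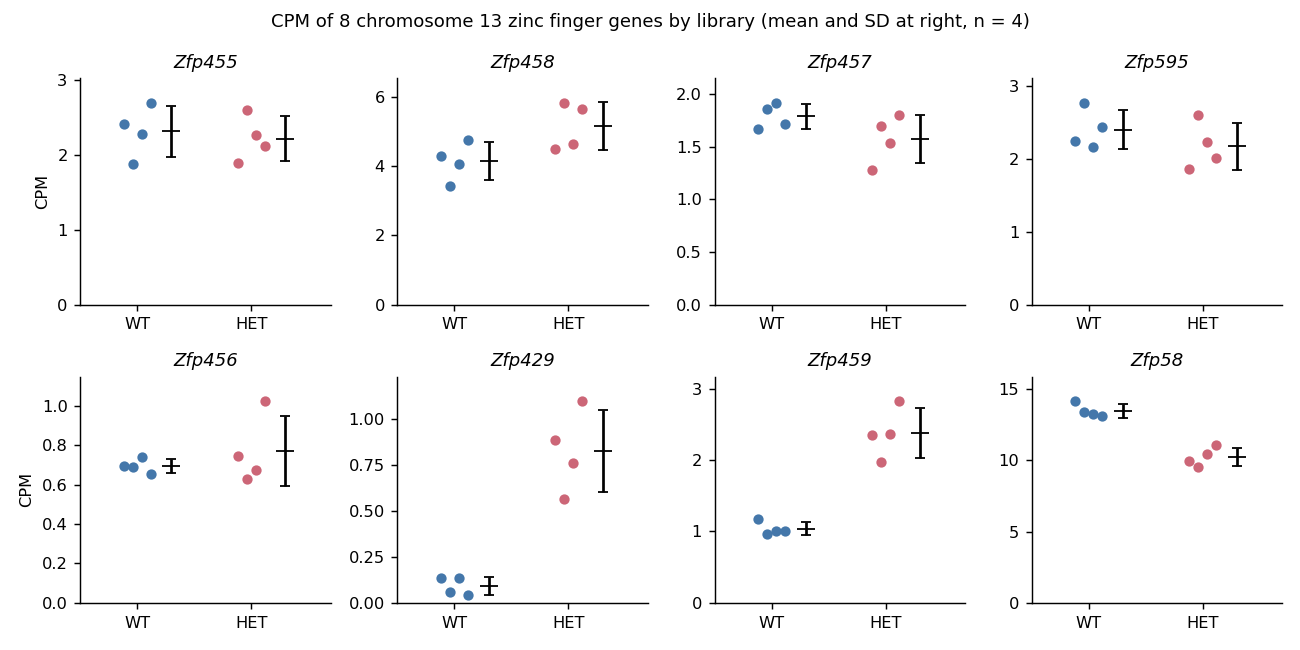
CPM (vertical axis, from 0) of the 8 members in each WT and HET library, 1 point per library, with the mean and SD at the right of each group (n = 4). The genotypes do not overlap in Zfp429, Zfp459 and Zfp58 and overlap in the other 5 members.

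Of the 8 members tested, 3 were among the genes that edgeR called at an adjusted p under 0.05 (2 higher, 1 lower), where 2.99% of all 17913 genes tested were called (2.62% higher and 0.368% lower in HET). The same 3 were the ones without overlap, 2 with HET above WT and 1 with HET below, which 10.6% of all genes tested showed, 6.99% above and 3.59% below. A fitted fold of at least 2 was found for 2 members, Zfp429 and Zfp459, and for 2.41% of all genes. Zfp429 was called at a mean under 1 CPM, as were 74 genes in all, or 0.413% of all genes tested, where 3681 of the genes tested had a mean under 1 CPM. Because the members were proposed with this contrast known, nothing is read from these counts. The median log2 fold change was 0.047 over the 8 members and -0.0056 over all genes tested.

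The sum over the members was alike in the genotypes while its makeup differed. Summed over the 8 members the level was 26.8, 25.04, 25.5 and 26.4 CPM in WT libraries 1 to 4 and 23.4, 25.4, 24.9 and 27.6 CPM in HET libraries 1 to 4. The HET range spanned the WT range. Zfp58 made up 49.6% to 53.5% of this sum in the WT libraries and 37.6% to 42.4% in the HET libraries. Zfp459 made up 3.84% to 4.38% in WT against 7.74% to 10.3% in HET, and Zfp429 0.169% to 0.540% against 2.22% to 3.98%. Zfp458, the member with the largest number of C2H2 matches, held 13.7% to 18.0% of the sum in WT and 18.7% to 22.9% in HET, though its CPM overlapped between the genotypes. The shares add up to the whole, so a smaller share of Zfp58 goes with larger shares of other members.

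**Figure D2:**
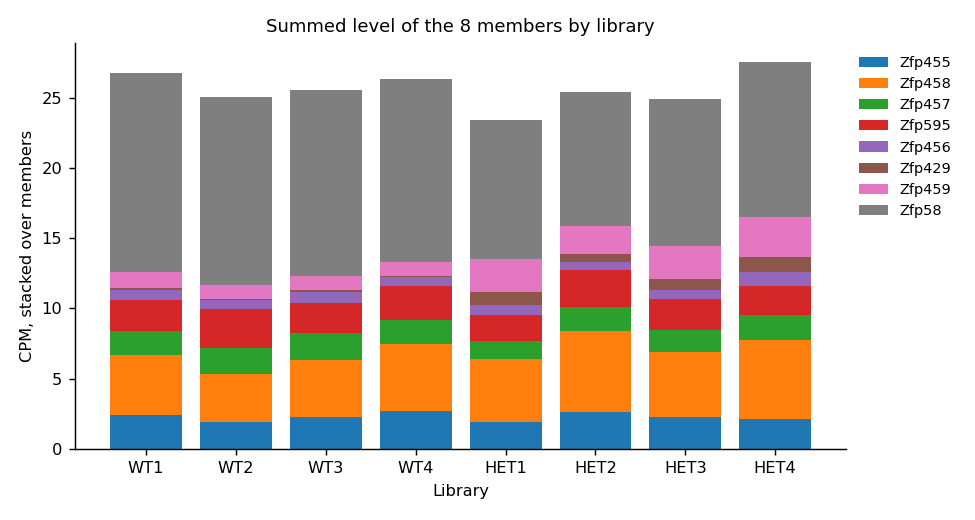
Stacked CPM of the 8 members (vertical axis, from 0) in each of the 8 libraries. The totals of the HET libraries (23.4 to 27.6 CPM) span those of the WT libraries (25.04 to 26.8 CPM), with a smaller Zfp58 layer and larger Zfp459 and Zfp429 layers in HET.

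Per kilobase of annotated exon, Zfp58 was the highest member in each genotype, at 5.53 ± 0.195 CPM per kb in WT and 4.21 ± 0.266 in HET (SD, n = 4 each). In WT it was followed by Zfp455 at 0.853 CPM per kb, Zfp457 at 0.530, Zfp458 at 0.511, Zfp595 at 0.441, Zfp459 at 0.283, Zfp456 at 0.150 and Zfp429 at 0.0402. In that order Zfp457 and Zfp458, and Zfp458 and Zfp595, overlapped over the 4 WT libraries, and the other neighbours did not. In HET, Zfp459 stood at 0.648 CPM per kb and overlapped its neighbours in the order, Zfp455 at 0.816 and Zfp458 at 0.637. Zfp429 stood at 0.356 CPM per kb in HET and overlapped Zfp595 at 0.399, while Zfp456, at 0.166, was the lowest. Exon lengths came from an annotation on GRCm38, which is not that of the counts, so these levels are approximate.

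**Figure D3:**
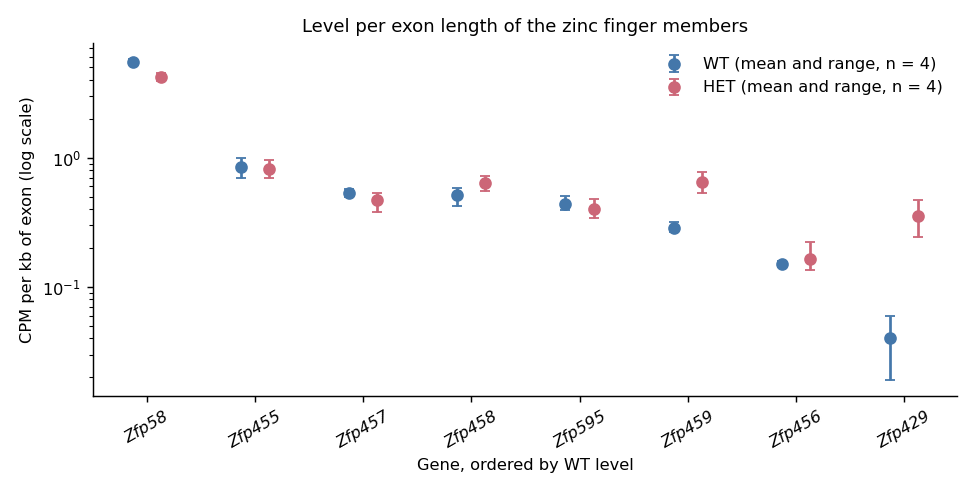
CPM per kb of exon (vertical axis, log scale) of each member in WT and HET, as mean and range over 4 libraries, ordered by the WT level. Zfp58 is the highest in both genotypes, and Zfp459 and Zfp429 take a higher place in HET than in WT.

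The neighbouring zinc finger genes overlapped between the genotypes. Zfp874a and Zfp874b, which lie between Zfp459 and Zfp58, were at 8.43 ± 0.671 and 17.1 ± 0.700 CPM in WT and at 8.05 ± 0.501 and 16.2 ± 0.993 CPM in HET (SD, n = 4 each), with log2 fold changes of -0.067 ± 0.0771 and -0.082 ± 0.0562 (SE) and edgeR adjusted p of 0.714 and 0.501. Rsl1, the gene just before the run and the close relative of Zfp429 in its upstream sequence, was at 2.03, 2.37, 2.03 and 1.77 CPM in WT and 2.19, 1.57, 1.65 and 1.90 CPM in HET libraries 1 to 4. Its log2 fold change was -0.19 ± 0.145 (SE) with an edgeR adjusted p of 0.565, and the groups overlapped. Zfp729b, the nearest tested gene after the run, had a log2 fold change of -0.087 (edgeR adjusted p = 0.509).

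Over the chromosome, 27 other zinc finger genes were tested, the 2 between the members and 25 elsewhere. Of these 0 passed an edgeR adjusted p of 0.05, which 2.99% of all genes tested did. At an unadjusted p under 0.05 edgeR counted 0 of the 2 and 4 of the 25 (16%), against 17.2% of all genes tested. Limma-voom called 0 in each set, and DESeq2 called 0 of the 2 and 1 of the 25, Zfp367, lower in HET. Over all 17913 genes tested, limma-voom called 628 and DESeq2 1188. Zfp367 was named after its values were seen. The 25 had a median log2 fold change of -0.087 and ran from -0.51 to 0.25. The most abundant of them were Zfp346 (log2 fold change -0.043), Zfp322a (-0.052) and Zfp369 (0.10), with Zfp874b the fourth by CPM. The difference between members and neighbours was not tested, since the members were chosen for theirs. Outside the block of zinc finger genes, Ptdss1, a phosphatidylserine synthase gene that precedes it, had a log2 fold change of 0.011 (edgeR adjusted p = 0.909) and Gm10037, which follows it, 0.072 (edgeR adjusted p = 0.931).

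**Figure D4:**
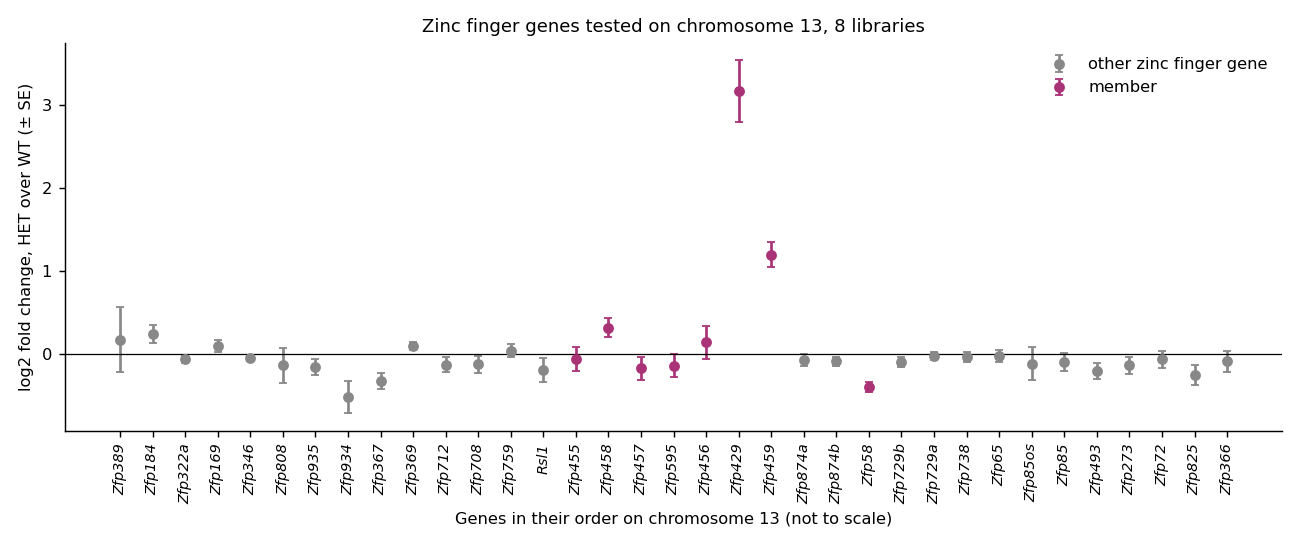
Fitted log2 fold change of HET over WT with its SE (vertical axis) for the 35 zinc finger genes tested on chromosome 13, in their order along the chromosome and not to scale, members in colour. Zfp429 (3.16) and Zfp459 (1.20) stand side by side above the rest, and the genes between Zfp459 and Zfp58 lie near 0.

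Few zinc finger genes on other chromosomes passed the test. Of 257 tested with at least 5 C2H2 matches, 2 passed an edgeR adjusted p of 0.05, both higher, or 0.778%, against 2.99% of all genes. DESeq2 called 2 higher and 3 lower, and limma-voom 2 higher and 1 lower. An unadjusted edgeR p under 0.05 was found for 29 of the 257 (11.3%), against 17.2% of all genes. Their median log2 fold change was -0.020. Zfp521, a transcription factor gene of neural progenitors, rose from 8.64 ± 0.583 to 11.6 ± 0.656 CPM (SD, n = 4 each; edgeR adjusted p = 0.00819), and Zfp423, a gene of cerebellar and ciliary development, rose from 13.9 ± 1.30 to 19.3 ± 2.78 CPM (SD, n = 4 each; edgeR adjusted p = 0.0315). Of the 257, 0 passed among even-numbered libraries, with either tissue score as a covariate (the mean level of a marker list, described with the markers) or without WT libraries 1 and 3, and 1 without WT library 1 or WT library 2. Of the 257, 1 had a fitted fold of at least 2, Zfp819, which at a mean of 0.110 CPM did not pass (edgeR adjusted p = 0.206) and was named after its values were seen.

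No gene of the repression machinery that KRAB proteins use passed the edgeR test. Of 36 genes, all tested, 0 passed an edgeR adjusted p of 0.05, against 2.99% of all genes tested. An unadjusted edgeR p under 0.05 was found for 5 of the 36 (13.9%), against 17.2% of all genes. Limma-voom called 0 of the 36 and DESeq2 called 1, Atrx, lower in HET. The median log2 fold change was -0.0031. By the mean over all 8 libraries the remodeller genes Chd3 and Chd4 were the most abundant, at 895.6 ± 46.6 and 245.7 ± 4.19 CPM in WT and 915.3 ± 55.5 and 251.0 ± 10.6 CPM in HET (SD, n = 4 each; edgeR adjusted p = 0.799 and 0.716). Trim28, the corepressor named after its values were seen, was at 157.0 ± 4.91 CPM in WT and 161.8 ± 4.38 CPM in HET (SD, n = 4 each; edgeR adjusted p = 0.566).

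Liver genes regulated by Rsl1 and Rsl2 were mostly silent in this tissue. Of 18 listed, 17 matched a row, 12 had a read and 4 were tested, of which 0 passed an edgeR adjusted p of 0.05, 1 had an unadjusted p under 0.05, and DESeq2 and limma-voom called 0. Over all genes tested, 2.99% passed the adjusted and 17.2% the unadjusted edgeR threshold. Cyp2d9, Mup1, Mup2, Mup4 and Hsd3b5 had no read in any library. C4b, a complement gene whose close relative C4a is the sex-limited protein gene, was at 26.1 ± 4.12 CPM in WT and 31.5 ± 1.83 CPM in HET (SD, n = 4 each; edgeR adjusted p = 0.208), and its groups did not overlap. C4a, named after its values were seen, was at 3.93 ± 0.450 CPM in WT and 4.28 ± 0.554 CPM in HET (SD, n = 4 each; edgeR adjusted p = 0.614), and its groups overlapped. The 2 genes are near-copies, so the counting can split their reads. Cyp7b1, an oxysterol hydroxylase gene, was at 24.8 ± 1.73 CPM in WT and 22.7 ± 2.37 CPM in HET (SD, n = 4 each; edgeR adjusted p = 0.399).

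Ependymal markers, of the cells that line the ventricles, were in part higher in HET, while no choroid plexus marker passed the edgeR test although their summed levels did not overlap. The 12 choroid plexus markers summed to 84.5 to 2124 CPM in WT and 4123 to 4660 CPM in HET libraries, with 0 of 12 past an edgeR adjusted p of 0.05 (11 at an unadjusted p under 0.05; DESeq2 called 4 and limma-voom 9) and none at 0. The 6 ependymal markers summed to 10.4 to 20.7 CPM in WT and 29.8 to 45.3 CPM in HET, with 4 of 6 past an edgeR adjusted p of 0.05 and none at 0. Of all genes tested, 2.99% passed the adjusted and 17.2% the unadjusted edgeR threshold. In bulk RNA, more cells of a type and more RNA per cell cannot be told apart. The WT libraries spread widely in the choroid plexus sum. Among them Zfp459 ran from 0.968 to 1.17 CPM and Zfp58 from 13.1 to 14.2 CPM. Zfp429 was higher in WT libraries 1 and 3, the lowest in choroid plexus markers (0.133 and 0.138 CPM), than in WT libraries 2 and 4 (0.0576 and 0.0445 CPM). This rests on 10 and 11 against 5 and 4 reads. WT libraries 1 and 3 are also the odd-numbered ones, and the spike-ins, described below, split by that number. Within WT the choroid plexus level and the spike-in set cannot be told apart. Adding the choroid plexus score to the fit gave log2 fold changes of 4.28 for Zfp429, 1.37 for Zfp459 and -0.32 for Zfp58, and adding the ependymal score gave 2.87, 1.14 and -0.36. None of the 3 was then past the threshold. Over all genes tested 1 was with the choroid plexus score and 0 with the ependymal score. Centred over the libraries, the choroid plexus score was -3.52 to 0.342 in WT and 1.17 to 1.38 in HET. The ependymal score was -1.34 to -0.144 in WT and 0.466 to 1.06 in HET. Each score thus split by genotype without overlap, so these fits cannot separate the score from the genotype, and nothing is read from the lost calls. The part of these tissues in the members' levels was not tested further. Without WT libraries 1 and 3, the lowest in choroid plexus markers, the values were 3.97, 1.26 and -0.37, and Zfp58 lost its call, which left 2 members called among 170 genes. The WT libraries left in that fit were the even-numbered ones.

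Within each spike-in mix Zfp429, Zfp459 and Zfp58 kept their signs, as groups without overlap do in any subset of these libraries. Nothing is read from this. Zfp455 was at 0.037 in even-numbered and Zfp456 at -0.017 in odd-numbered libraries (log2 fold change), against their signs over all libraries. The ratio of the spike-ins ERCC-00130 to ERCC-00002 was 1.20 to 1.28 in odd-numbered and 0.165 to 0.186 in even-numbered libraries of either genotype. The libraries thus fell into sets by replicate number, read here as different spike-in mixes, which is an inference from this ratio. In the odd-numbered libraries Zfp429, Zfp459 and Zfp58 had log2 fold changes of 2.58, 1.13 and -0.42, with Zfp58 not past the threshold. Among even-numbered libraries the values were 3.99, 1.28 and -0.36, and Zfp429 alone was past it, where 78 genes were called in all.

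**Figure D5:**
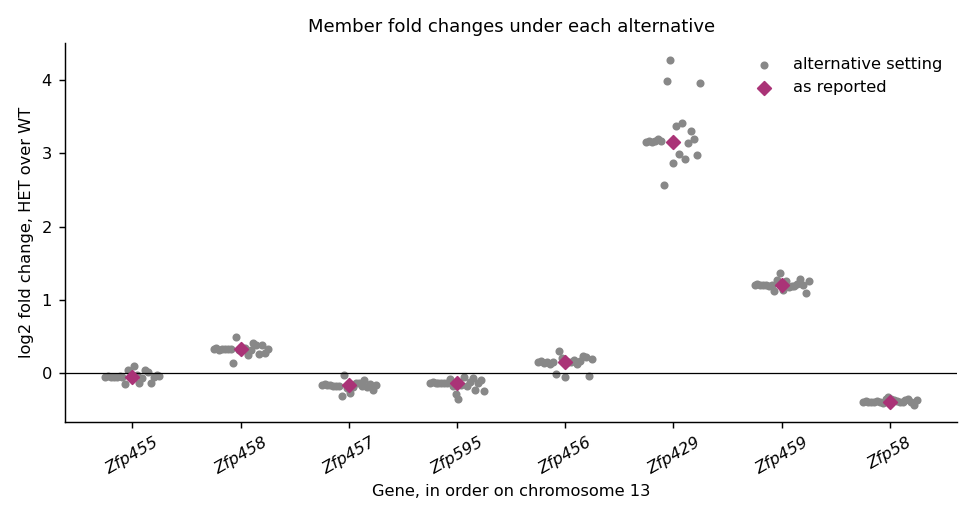
Log2 fold change of HET over WT (vertical axis) of each member as reported (diamonds) and under each alternative setting (grey points, 19 or 20 per gene). Zfp429 (2.58 to 4.28) and Zfp459 (1.10 to 1.37) stay above 0 and Zfp58 (-0.43 to -0.32) below it, while Zfp455 and Zfp456 have values on either side of 0. The genotypes do not overlap in Zfp429, Zfp459 and Zfp58, so leaving out libraries cannot turn their signs, and nothing is read from this. The grey points include the fits with a tissue score, which cannot separate that score from the genotype.

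Shared sequence limits what a count of these genes can say. Of the 50-base windows of the longest coding transcript, 25.4% of Zfp429 occurred in a transcript of another gene, mostly Rsl1 (20.6%), and 6.44% of the 100-base windows did. For Zfp459 the shares were 17.4% and 11.3%, the latter all in the antisense model Gm48900, which overlaps Zfp459 and Zfp429 on the opposite strand. For Zfp58 they were 50.2% and 49.1%, with Gm26965, a model that overlaps Zfp58 and Zfp87 on the same strand. Neither Gm48900 nor Gm26965 matched a row among the genes counted, so no count can be set beside these shares. Zfp456 had the highest shares, 65.3% and 57.3%, of which 50.2% and 49.6% in that order with Gm17039, the antisense model that had at most 4 reads in a library. Zfp455, Zfp458, Zfp457 and Zfp595 shared between 5.38% and 12.8% of 50-base windows and between 1.15% and 4.01% of 100-base windows. Whether the libraries keep strand, and how reads that fit several genes were counted, is not given in the sources used here, so the split of reads among these genes is uncertain.

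Among 13212 other genes with a symbol and a mean of at least 1 CPM, those whose log2 CPM followed Zfp459 most closely over the 8 libraries were Smad5, a BMP signal transducer gene also on chromosome 13 (Pearson r = 0.987), Wdr66, an axonemal gene (0.986), and Col15a1, a collagen gene (0.974). For Zfp58 they were Riok3, an atypical kinase gene (0.982), Snx11, a sorting nexin gene (0.980), and Rbfox3, the neuronal splicing factor gene (0.980). Their log2 fold changes were 0.19, 0.48 and 0.32 for the former and -0.059, -0.12 and -0.13 for the latter, all smaller in size than those of Zfp459 and Zfp58. Rbfox3 was also among the hippocampal neuron markers that edgeR called lower in HET. For the members without a gap the closest genes were Dleu7, Impact and Fam196a for Zfp455 (0.972, 0.968 and 0.954). For Zfp458 they were Wdr92, Zfp619 and Lgals8, the last also on chromosome 13 (0.934, 0.924 and 0.921). For Zfp457 they were Ighmbp2, Mgrn1 and Rnf31 (0.959, 0.958 and 0.956), and for Zfp595 Amn, Rims4 and Fam219a (0.968, 0.9635 and 0.951). These are the highest of many correlations over 8 libraries that share the genotype split, and are given as a description.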

How the data were processed

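RNA of the hippocampus was measured in 8 libraries, 4 HET and 4 WT, grouped by their titles. The values are whole-number read counts per gene, deposited as 1 table. The submitters' processing notes name DESeq2, HTSeq, STAR 2.4.2a and FastQC, and as builds mm9 and NCBIM37. Annotation, strand setting and the treatment of multiply mapped reads: not given in the sources used here. Spike-ins (92 rows) entered neither library sizes nor tests. Symbols, chromosome order, exon lengths and transcripts came from GENCODE M21 (GRCm38), which matched 32620 identifiers, and promoters and synonyms from RefSeq (GRCm38.p6).

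Counts were scaled by TMM, filtered with filterByExpr (minimum count 10, total 15) and tested by quasi-likelihood F in edgeR 4.0.16 in R 4.3.3, robust and two-sided, with Benjamini-Hochberg adjustment over all genes tested at 0.05. An SE is the size of the log2 fold change over the square root of its F. The fit was tested on simulated counts. Log2 CPM for scores and likeness used a prior count of 2. A tissue score is the mean log2 CPM of a marker list. Alternatives were other scalings, filters and tests (DESeq2 1.42.0, limma-voom of limma 3.58.1), left-out libraries, the replicate block, odd- or even-numbered libraries alone and tissue scores. Leaving out WT libraries 1 and 3 together was added after the data were seen.

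The members, lists and rules were chosen with earlier results of these data known. All members, Nr2f1 and Rsl1 are named; of the other chromosome 13 zinc finger genes, those past the threshold and the 4 most abundant; of each other list, up to 4 past the threshold, otherwise the 2 most abundant; for each member with a mean of at least 1 CPM, the 3 genes with the highest Pearson r. No protein sequences were used: zinc fingers were counted in translated GENCODE transcripts, where RefSeq proteins had been planned. Markers not described in the report did not pass as edgeR calls: 0 of 9 meningeal fibroblast, 5 astrocyte, 5 oligodendrocyte and 5 microglia genes and 0 of 2 liver genes tested (at an unadjusted p under 0.05, 5, 1, 0, 0 and 0; DESeq2 4, 0, 0, 0 and 1; limma-voom 2, 0, 0, 0 and 0). Of 8 hippocampal neuron markers 3 were called lower in HET, against 0.368% of all genes tested. They were Wfs1, Snap25 and Rbfox3 (edgeR adjusted p = 0.0362, 0.0419 and 0.0396). P-values measure the spread between these mice.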

Additional observations from a re-analysis of the deposited data

How the results depend on the processing

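The number of genes called was 535 as reported and 1188 with the DESeq2 Wald test, 78 among even-numbered libraries, 1 with the choroid plexus and 0 with the ependymal covariate, and 170 without WT libraries 1 and 3 together; it ran from 171 to 767 with a library left out. It was 223 without WT library 1, 171 without WT library 3, and 321, 315 and 281 without HET library 1, 3 or 4. The members called numbered 3 as reported, 1 among even-numbered libraries and 0 with either score, and 3 with each library left out. The members were chosen on these same libraries, so these counts are a description and nothing is read from them. Of zinc finger genes on other chromosomes, 2 were called as reported, 5 with DESeq2, 1 in the odd-numbered and 0 in the even-numbered libraries, 0 with either score, 0 without WT libraries 1 and 3, and 1 to 3 with a library left out (1 without WT library 1 or WT library 2, and 3, of which 1 lower, without HET library 1). DESeq2 called 1 of the other chromosome 13 zinc finger genes and 1 machinery gene, and 1 liver gene was called among odd-numbered libraries, where the reported counts were 0. The log2 fold change of Nr2f1 kept its sign throughout and lost its call with the ependymal score (-0.55, edgeR adjusted p = 0.469). With a filter of 1 CPM in 4 libraries, Zfp429 and Zfp456 were not tested. Spike-in scaling was not run, since the sources used here do not say which spike-ins have equal concentration in the mixes.

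With the replicate number as a block 406 genes were called, and, as a description only, 3 members. The numbers did not pair the libraries: same-numbered libraries of the 2 genotypes had correlations of their deviations from the group means of 0.027, -0.045, -0.093 and -0.078. No library correlated best with its own number. WT libraries 1, 2, 3 and 4 correlated best with HET libraries 3, 4, 1 and 2, each in the same odd- or even-numbered set. HET library 3 correlated best with WT library 4, of the other set. The depth limits Zfp429 most, with 4 to 11 reads in a WT library; its log2 fold change moved by more than its SD between replicates under 4 of 19 alternatives, from 2.58 to 4.28.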
